A study of Homo sapiens with 5 samples.

Results

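Some transcripts end inside an intron instead of at the end of the gene, and the sites described here are the poly(A) sites annotated as intronic in genes that also have a site annotated as 3′ UTR. They were taken from the deposited table of poly(A) sites by its own annotation, as every nuclear row annotated as intron whose gene also had at least 1 row annotated as 3′ UTR. This gave 1943 intronic sites in 1431 genes, out of 29996 sites and 3419 intronic sites in all. The other 1476 intronic sites lay in genes without a 3′ UTR site. The genes with both kinds of site made up 13.4% of the 10671 genes with a 3′ UTR site. The table lists only sites that reached an RPM of 5 (reads per 1000000 mapped reads) summed over the libraries, so weaker intronic sites were not analysed here.

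The 3 CFIm25 KO libraries and the 2 control libraries came from the human embryonic stem cell line H9, grown in mTeSR medium without further treatment. CFIm25 KO is the label of 3 clones edited with CRISPR-Cas9 near the start of the CFIm25 gene, NUDT21, and the study describes them as clones with reduced CFIm25 and in-frame deletions at its N-terminus, not as complete loss. Control clones had received the CRISPR vector without a guide. Each line is a single clone, so the p-values measure the spread between clones. Poly(A)+ RNA was sequenced from its 3′ end with the QuantSeq Rev kit, in which the end of each read marks the poly(A) junction.

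Cleavage and polyadenylation inside an intron truncates the transcript, and either yields a shorter protein with a different C-terminus or an RNA that is not translated. Splicing of the intron competes with use of such a site, and the site at the end of the gene is used only when the polymerase has passed the intronic one. CFIm25 recognises UGUA elements that lie upstream of many poly(A) sites, and with CFIm68 or CFIm59, the other subunits of cleavage factor I, it enhances cleavage there.

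Nuclear reads numbered 7228486, 6443735 and 5090703 in CFIm25 KO and 4814604 and 4816969 in control. All sites of NUDT21 summed to 128.5, 121.8 and 130.0 counts per 1000000 nuclear reads (CPM) in CFIm25 KO and 222.2 and 215.5 CPM in control. These 3′ tags do not cover the edited stretch, so they show the level of the transcript and not the edit. All 10 embryonic stem cell markers examined had sites, summing to between 4864 and 5111 CPM in CFIm25 KO and to 5417 and 3531 CPM in control. The low control value went with LIN28A, an RNA-binding protein of pluripotent cells, at 728 CPM in control replicate 2, against 2496 CPM in control replicate 1. Endoderm markers had sites in 1 of 6 genes, summing to at most 4.71 CPM. Mesoderm markers had sites in 2 of 6 genes (14.0 to 40.7 CPM), ectoderm and neural markers in 3 of 6 (101 to 320 CPM) and fibroblast markers in 3 of 6 (89.1 to 219 CPM). SOX17, FOXA2, TBXT, EOMES, PAX6, COL3A1 and DCN were without a site. The part of these other markers in the values given here was not tested.

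The sequence before a few of these sites could be read from RefSeq promoter windows on the same build (GRCh38.p14). Of all the intronic sites, 5 fell into such a window, and the last 30 bases of the transcript before each are shown because they carry, or lack, the hexamer that recruits the cleavage machinery. They are written 5′ to 3′ on the transcript strand as DNA, the last base is the deposited site, and capitals mark the hexamer.

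CCDC106 first site, chr19:55643440-55643469, plus strand: accctttgctcAATAAAcattccgcactcc
CCDC106 second site, chr19:55647263-55647292, plus strand: ctgaagcttAATAAAcatctgcttattcat
PPIH, chr1:42676010-42676039, plus strand: ggcaAATAAAtgagatagtatgcttgacca
DGKA, chr12:55927983-55928012, plus strand: gctgaggatctaaagcggggcaactcgcca
SPDL1, chr5:169583860-169583889, plus strand: ggctgcggcagcaggggactagcgtgagag

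AATAAA or ATTAAA was searched on the transcript strand only, and 3 of the 5 sequences held AATAAA. In CCDC106 it began 19 and 21 bases before the end of the printed sequence, and in PPIH 26 bases before it. Of 35116 promoter windows, 2.42% held either hexamer in their first 30 bases. The first CCDC106 site also lay at the end of the neighbouring gene ZNF580. It held 163, 114 and 101 reads in CFIm25 KO and 67 and 79 reads in control, or 20.03 ± 2.43 CPM (SD, n = 3) in CFIm25 KO and 15.2 ± 1.76 CPM (SD, n = 2) in control. All CFIm25 KO values were above control in CPM, but the site did not pass the test. The edgeR log2 fold change of this CCDC106 site was 0.42 (SE 0.21, adjusted p = 0.638). The other sites were low with or without a hexamer, averaging 1.92 CPM at the second CCDC106 site, 1.51 CPM at PPIH, 1.46 CPM at DGKA and 1.40 CPM at SPDL1 over the 5 libraries.

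Most genes had a single intronic site: 1093 genes had 1, 242 had 2, 59 had 3, 19 had 4 and 18 had 5 or more. Of the sites, 1485 lay upstream of all 3′ UTR sites of their gene, 164 lay between 3′ UTR sites and 294 lay downstream of all of them. The upstream sites were a median of 30850 bases from the nearest 3′ UTR site, with quartiles at 12026 and 73340 bases. Within the 1720 sites that fell into the RefSeq span of their gene, successive stretches of 20% of the gene length from the start held 391, 307, 325, 348 and 349 sites. Genes with intronic sites were long, with a median RefSeq length of 68360 bases over 1279 genes, against 28924.5 bases over 9152 other genes with 3′ UTR sites. GENCODE listed 1424 of the genes, 1418 of them as protein coding.

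**Figure D1:**
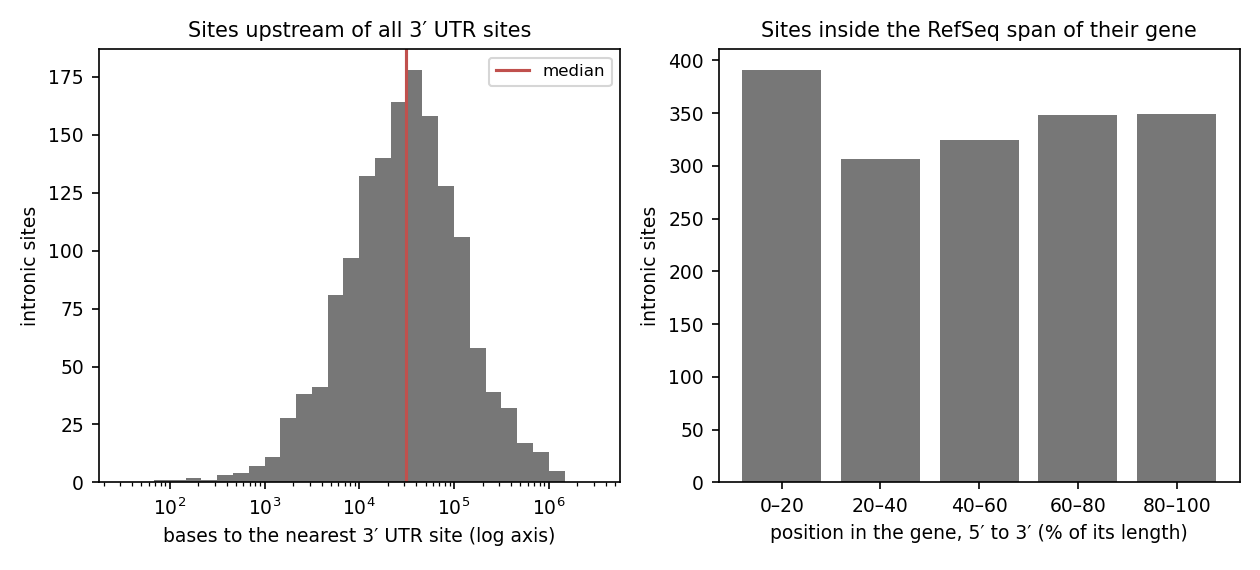
Histogram of the distance in bases from the 1485 intronic sites upstream of all 3′ UTR sites to the nearest 3′ UTR site (left, log axis, line at the median of 30850 bases), and number of intronic sites in each 20% of their gene's length for 1720 sites inside the RefSeq span (right). The middle 50% of the distances lie between 12026 and 73340 bases, and the first 20% of the gene holds the most sites, 391, against 307 to 349 in the others.

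The label intron did not always mark an internal position. Within 100 bases of the RefSeq end of their own gene lay 71 of the sites, which held 10.8% of the reads at intronic sites, and a further 43 sites (2.94% of those reads) lay at the end of another gene on the strand. Over intronic sites the share at the own RefSeq end was 3.65%, against 39.2% of 18314 3′ UTR sites. CSTF3, a subunit of the cleavage stimulation factor, was such a case. Its main intronic site, at position 33084584 of chromosome 11, coincided with its RefSeq end, while its only 3′ UTR site lay 56847 bases upstream. LMNB2, LAMTOR1 and PABPC1, described below, were others. In addition, 110 sites lay inside another RefSeq gene on the same strand, and 175 inside a gene on the opposite strand.

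PHF21B and VASH2 held 10 intronic sites each. PHF21B, a PHD finger protein, had 600, 468 and 320 intronic reads in CFIm25 KO and 424 and 413 in control. Its shift, the log2 ratio of intronic to 3′ UTR reads in CFIm25 KO less the same ratio in control, was -0.57 (adjusted p = 0.221). VASH2, a vasohibin that removes the terminal tyrosine of tubulin, had 451, 144 and 378 intronic reads in CFIm25 KO and 369 and 370 in control (shift -0.46, adjusted p = 0.875). Neither PHF21B nor VASH2 passed the edgeR test, although in both the share at intronic sites was below both controls in every CFIm25 KO library. The PHF21B share was 15.3% ± 0.853 in CFIm25 KO and 21.3% ± 0.156 in control, and the VASH2 share was 28.6% ± 4.93 in CFIm25 KO and 36.9% ± 0.112 in control.

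Intronic sites took about the same small part of the reads in every library. Of nuclear reads, 1.11%, 1.12% and 1.17% ended at these sites in CFIm25 KO, against 1.13% and 1.13% in control. The groups overlapped, with means of 1.134% ± 0.0317 (SD, n = 3) and 1.131% ± 0.00301 (SD, n = 2) for CFIm25 KO and control. The difference of 0.0025 percentage points had an exact two-sided permutation p of 1, and 2 against 3 libraries cannot give a p below 0.1. Without CFIm25 KO replicate 3, the highest library, the difference was -0.0157.

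The median gene ended 17.4% of its intronic plus 3′ UTR reads at intronic sites. This was over the 987 genes whose intronic and 3′ UTR reads both passed the filter on low counts, and 444 genes were left untested. The share ran from 0.0531% to 99.2%, with 10% of genes below 2.36% and 10% above 66.3%, and 166 of the 987 genes ended more than 50% of their reads at intronic sites. The library medians of log2 intronic over 3′ UTR reads were -2.36, -2.27 and -2.19 in CFIm25 KO and -2.27 and -2.32 in control. These medians overlapped, and their difference of 0.023 had an exact permutation p of 0.7. Its sign was negative without CFIm25 KO replicate 3 (-0.0164) and without control replicate 2 (-0.0015).

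**Figure D2:**
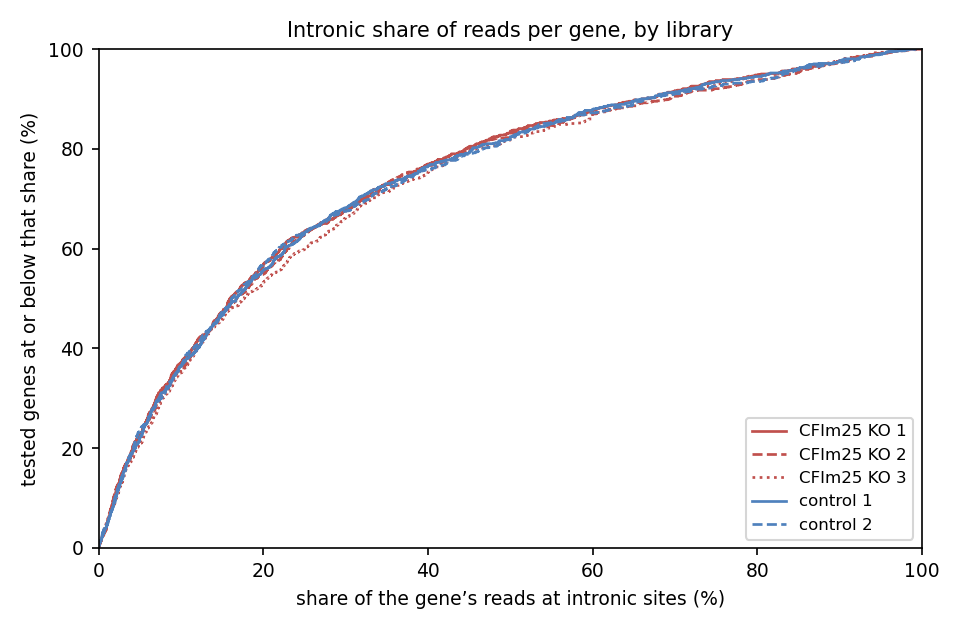
Cumulative share of the 987 tested genes (y axis, %) against the share of a gene's intronic plus 3′ UTR reads that end at intronic sites (x axis, %), 1 line per library, with the 3 CFIm25 KO libraries in red and the 2 control libraries in blue. The 5 lines run close together over the whole range, around a median of 17.4% over all libraries.

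Reads were concentrated in few sites. The 8 highest sites held 20.1% of all reads at intronic sites, and 100 sites held 50% of them. The highest was in PCDH1, a protocadherin of cell adhesion, with 2457, 3215 and 2181 reads in CFIm25 KO and 1758 and 2132 in control. It lay 9289 bases upstream of the 3′ UTR site of PCDH1, which held only 51 to 88 reads in CFIm25 KO and 37 and 52 in control. The PCDH1 site averaged 422 ± 79.7 CPM in CFIm25 KO and 404 ± 54.8 CPM in control, and these groups overlapped.

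AP1S2, a subunit of the clathrin adaptor complex AP-1, had 2767, 3169 and 1686 reads at its main intronic site in CFIm25 KO and 1358 and 1515 in control. In CPM the AP1S2 site was higher in all 3 CFIm25 KO libraries, 402 ± 82.0 against 298 ± 22.9 in control, with a log2 fold change of 0.46 (SE 0.18) that did not pass the test (edgeR adjusted p = 0.541). Of the other high sites, TERF1, the telomere-binding subunit of shelterin, averaged 373 ± 33.2 CPM in CFIm25 KO and 338 ± 15.0 CPM in control. ADD2, an adducin that caps actin filaments, averaged 311 ± 68.6 CPM and 317 ± 34.4 CPM in the same groups. KIF2A, a kinesin that depolymerises microtubules, averaged 143 ± 25.9 CPM in CFIm25 KO and 161 ± 0.643 CPM in control. The TERF1, ADD2 and KIF2A log2 fold changes were 0.16, -0.01 and -0.16, with adjusted p of 0.801, 0.996 and 0.858. Neither the AP1S2 nor the KIF2A site lay upstream of all 3′ UTR sites of its gene. Each lay downstream of the nearest of them, the KIF2A site at 97.3% of the gene length from the start.

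In the remaining high sites the annotation or the mapping also limits what the site can be taken for. PABPC1, the cytoplasmic poly(A)-binding protein, and LMNB2, a B-type lamin, had theirs within 1 base of the RefSeq end of the gene. PABPC1 averaged 234 ± 22.8 CPM there in CFIm25 KO and 252 ± 34.6 CPM in control, and LMNB2 averaged 169 ± 5.03 CPM and 180 ± 5.81 CPM in these groups. CXorf40B averaged 252 ± 48.3 CPM in CFIm25 KO and 290 ± 13.6 CPM in control at a site inside the gene. CXorf40B has a near-identical copy on the same chromosome, and the authors kept 1 alignment per read, so its reads cannot be assigned with certainty. The log2 fold changes of PABPC1, LMNB2 and CXorf40B lay between -0.19 and -0.07, and the adjusted p between 0.813 and 0.929.

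Among the tested genes, those with the highest intronic share were CXorf40B (99.2% ± 0.019 in CFIm25 KO, 99.2% ± 0.236 in control), PABPC1 (97.7% ± 0.982 and 98.0% ± 0.209), PCDH1 (97.6% ± 0.251 and 97.8% ± 0.226), LAMTOR1, RBFOX2 and RUVBL1. LAMTOR1, which anchors the Ragulator complex at lysosomes, had 97.7% ± 0.520 in CFIm25 KO and 95.6% ± 0.177 in control. All 3 CFIm25 KO values of LAMTOR1 were above control, but its site lay at the RefSeq end and the shift of 0.95 (SE 0.39) had an adjusted p of 0.33. RBFOX2, a splicing regulator, had 95.2% ± 1.11 in CFIm25 KO and 95.9% ± 1.49 in control. RUVBL1, an ATPase of chromatin remodelling complexes, had 95.2% ± 1.17 in CFIm25 KO and 95.6% ± 0.435 in control. Both overlapped between the groups. The RUVBL1 site did not lie upstream of all 3′ UTR sites of its gene. It lay 55 bases downstream of the nearest and 16178 bases upstream of the main one.

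Whether genes moved reads between intronic and 3′ UTR sites was tested with the shift defined above, fitted on both read sums of every gene with edgeR's diffSpliceDGE. Of 987 genes, 6 passed a Benjamini-Hochberg adjusted p of 0.05 (0.608%), of which PCM1, ZNF133, CSNK1E and SMAD2 used intronic sites more in CFIm25 KO (0.405%) and LMBR1L and FMR1 less (0.203%). An unadjusted p under 0.05 was reached by 105 genes. The shift was above 0 in 509 genes and below 0 in 478, its median was 0.02, and the median SE was 0.47. A difference of at least 1 on the log2 scale was seen in 63 genes upward and in 45 downward. The groups did not overlap in intronic share in 28.0% of the tested genes.

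PCM1 encodes the scaffold of centriolar satellites. Its intronic site, 66466 bases into the gene and 38300 bases upstream of the nearest 3′ UTR site, held 208, 189 and 122 reads in CFIm25 KO and 41 and 49 reads in control. The 3′ UTR sites of PCM1 held 162, 149 and 114 reads in CFIm25 KO and 122 and 111 in control. Thus every CFIm25 KO library exceeded both controls at the intronic site although control and CFIm25 KO libraries were closer at the 3′ UTR. The intronic share was 54.6% ± 2.53 in CFIm25 KO and 27.9% ± 3.87 in control, and the shift of PCM1 was 1.65 (SE 0.28, adjusted p = 0.00517).

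CSNK1E encodes casein kinase 1 epsilon, a kinase of the circadian clock and of WNT signalling. Its 2 intronic sites, 5512 and 6908 bases upstream of its 3′ UTR site, held together 505, 384 and 432 reads in CFIm25 KO and 132 and 111 in control. The 3′ UTR site of CSNK1E held 169, 112 and 58 reads in CFIm25 KO and 101 and 84 in control. The intronic sum did not overlap between the groups while the 3′ UTR reads did. Both sites went the same way: the nearer one held 411, 291 and 344 reads in CFIm25 KO and 92 and 83 in control, and the farther one 94, 93 and 88 reads in CFIm25 KO and 40 and 28 in control. The intronic share was 80.2% ± 7.03 in CFIm25 KO and 56.8% ± 0.191 in control, a shift of 1.62 (SE 0.33, adjusted p = 0.0211). The sites of CSNK1E also lie in the readthrough gene TPTEP2-CSNK1E, which shares its last part.

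SMAD2 encodes a signal transducer of activin, nodal and TGF-beta. Its intronic site, 13389 bases upstream of the nearest of 10 3′ UTR sites, held 31, 27 and 15 reads in CFIm25 KO and 5 and 2 reads in control. The 3′ UTR sites of SMAD2 held 524, 473 and 317 reads in CFIm25 KO and 352 and 332 in control. The site was thus a minor one in all libraries, with an intronic share of 5.17% ± 0.57 in CFIm25 KO and 1.00% ± 0.567 in control. The SMAD2 shift was 2.40 (SE 0.52, adjusted p = 0.037). With 5 and 2 control reads at the site, SMAD2 passed the filter on low counts through its CFIm25 KO libraries only.

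ZNF133, a KRAB zinc finger repressor, had reads at its intronic site only in CFIm25 KO libraries, with 16, 15 and 7 reads, against 0 and 0 in control. The site lay 6108 bases into ZNF133 and 22356 bases upstream of the 3′ UTR site, which held 155, 113 and 117 reads in CFIm25 KO and 127 and 108 in control. The pooled share was 8.98% in CFIm25 KO, and a limit of 3 reads over both control libraries allows up to 1.26% in control. Relative to 3′ UTR reads, the pooled intronic reads of ZNF133 were at least 7.73-fold higher under this limit. The limit does not cover the spread between clones. The adjusted p of 0.00517 belongs to the edgeR fit of the shift, not to the 7.73-fold bound. With no control read, ZNF133 passed the filter on low counts through its CFIm25 KO libraries only, and it was not tested without CFIm25 KO replicate 1 or without CFIm25 KO replicate 2.

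In the opposite direction, LMBR1L, a membrane protein, had 2, 4 and 5 intronic reads in CFIm25 KO and 13 and 18 in control. Its 3′ UTR site held 131, 105 and 98 reads in CFIm25 KO and 58 and 86 in control. The LMBR1L share was 3.34% ± 1.70 in CFIm25 KO and 17.8% ± 0.709 in control (shift -2.64, SE 0.59, adjusted p = 0.037). FMR1, which encodes the RNA-binding protein lost in fragile X syndrome, had 12, 9 and 11 intronic reads in CFIm25 KO and 34 and 25 in control, at a site 2100 bases upstream of the nearest 3′ UTR site. The 3′ UTR sites of FMR1 held 57, 53 and 32 reads in CFIm25 KO and 34 and 25 in control. The FMR1 share was 19.2% ± 5.74 in CFIm25 KO and 50% in each control (shift -2.11, SE 0.48, adjusted p = 0.0371). In both genes all CFIm25 KO shares lay below both controls, on few reads. Both genes passed the filter on low counts through their control libraries, where their intronic reads were higher.

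**Figure D3:**
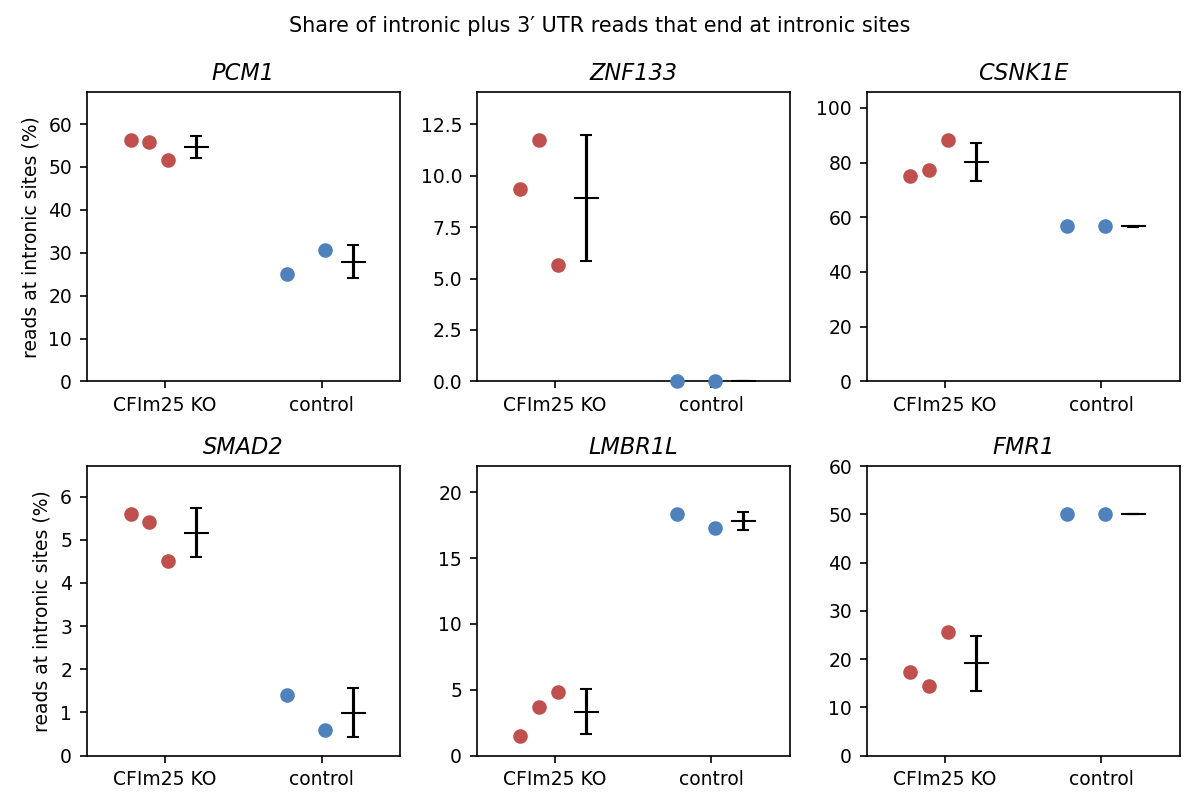
Share of a gene's intronic plus 3′ UTR reads that ended at intronic sites (y axis, %) for the 6 genes past the threshold, 1 point per library, CFIm25 KO (3 libraries, red) left of control (2 libraries, blue), with the mean and SD beside the points. The groups do not overlap in any panel, PCM1 being at 54.6% in CFIm25 KO and 27.9% in control and FMR1 at 19.2% and 50%.

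None of the 6 genes passed edgeR's quasi-likelihood test on its summed 3′ UTR reads, with log2 fold changes between -0.22 (ZNF133) and 0.32 (FMR1) and adjusted p between 0.856 (LMBR1L) and 0.995 (SMAD2). The PCM1, CSNK1E and SMAD2 values were -0.07, -0.10 and -0.01. The 6 calls rested on a fit without a term for the library. With such a term no gene passed (94 with an unadjusted p under 0.05), the 6 adjusted p then being between 0.0903 (PCM1, ZNF133, SMAD2 and LMBR1L) and 0.151 (CSNK1E), and in limma on log2 ratios per library only ZNF133 passed. Leaving out a library gave 0 genes without control replicate 1 (80 unadjusted), 1 without control replicate 2, 0 without CFIm25 KO replicate 1 (97 unadjusted), 3 without CFIm25 KO replicate 2 and 23 without CFIm25 KO replicate 3. These counts include other genes: of the 6, 0 passed without either control, 0 without CFIm25 KO replicate 1, 2 without CFIm25 KO replicate 2 (PCM1 and CSNK1E) and 6 without CFIm25 KO replicate 3. Their direction was the same in each of these fits that tested them.

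**Figure D4:**
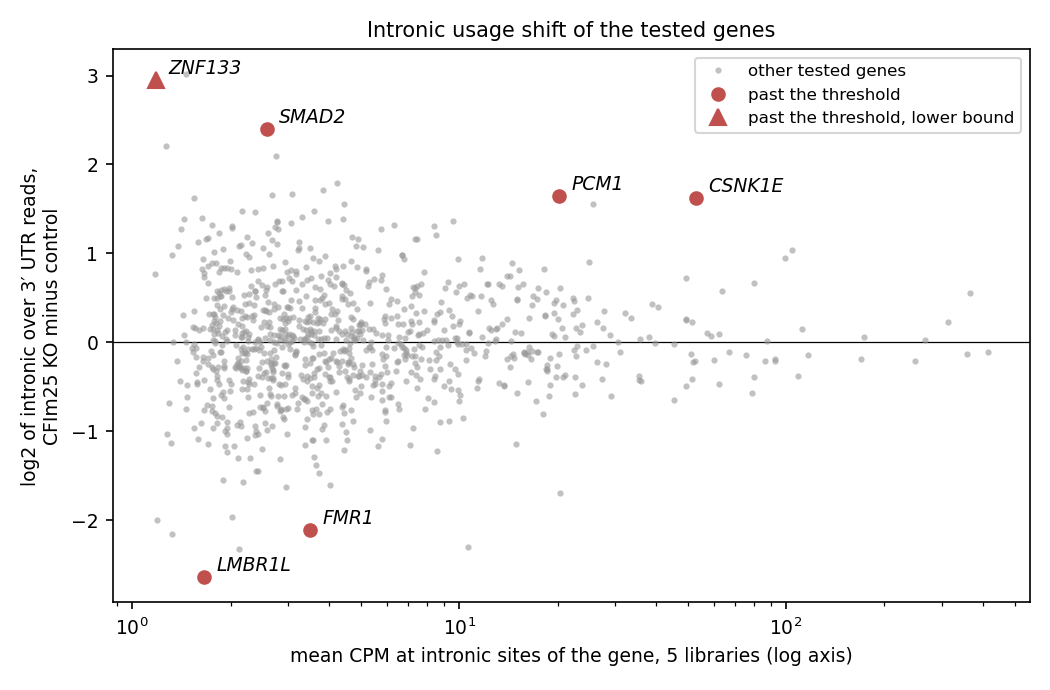
Shift in intronic usage (y axis, log2 of intronic over 3′ UTR reads in CFIm25 KO minus control) against the mean CPM at the gene's intronic sites over 5 libraries (x axis, log scale) for the 987 tested genes. The 6 genes past the threshold are red and named, with ZNF133 as a triangle at its lower bound of 2.95, and most genes scatter around 0 more widely at low CPM.

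Single sites were tested over the whole table. Of 1267 intronic sites tested, 4 passed the threshold (0.316%), against 27 of 24516 sites of all kinds (0.11%) and 12 of 16174 3′ UTR sites (0.0742%). The calls split into 9 higher (0.0367%) and 18 lower (0.0734%) over all sites, and 3 higher and 1 lower over intronic sites. An unadjusted p under 0.05 was reached by 125 of the intronic sites (9.87%) and by 1994 of all sites (8.13%). The groups did not overlap in CPM at 27.5% of the intronic sites tested and at 26.1% of all nuclear sites tested. The median log2 fold change of the intronic sites was -0.01, against 0.00 for all sites. The low counts left 676 of the 1943 sites untested.

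The 3 sites that rose were 1 each in CSNK1E, PCM1 and SNTG2. The CSNK1E site at position 38296205 of chromosome 22 had 56.5 ± 11.2 CPM in CFIm25 KO and 18.2 ± 1.33 CPM in control (log2 fold change 1.65, SE 0.19, adjusted p = 0.00172). The PCM1 site at position 17989454 of chromosome 8 had 27.4 ± 2.95 CPM in CFIm25 KO and 9.34 ± 1.17 CPM in control (1.57, SE 0.22, adjusted p = 0.00879). Both are the sites whose reads made the shifts above.

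SNTG2 encodes gamma-2 syntrophin, an adaptor of the dystrophin complex. Its site at position 1181249 of chromosome 2 held 105, 134 and 55 reads in CFIm25 KO and 20 and 16 in control, or 15.4 ± 5.05 CPM and 3.74 ± 0.589 CPM in these groups (2.07, SE 0.34, adjusted p = 0.0403). That site lay between 3′ UTR sites of the gene, not upstream of all of them. The 3′ UTR sites of SNTG2 held 75, 65 and 36 reads in CFIm25 KO and 8 and 22 in control, so they were also higher in every CFIm25 KO library in read number. The SNTG2 intronic share therefore overlapped between the groups, at 72.9% ± 2.51 in CFIm25 KO and 76.6% ± 13.3 in control (shift -0.18, adjusted p = 0.962). Over single intronic sites, 1 passed without control replicate 1, 1 without control replicate 2, 1 without CFIm25 KO replicate 1, 3 without CFIm25 KO replicate 2 and 18 without CFIm25 KO replicate 3. Of the 4 called sites, the CSNK1E site passed in each of these fits but the one without control replicate 2, in which 0 of the 4 passed. The PCM1 site passed without CFIm25 KO replicate 2 and without CFIm25 KO replicate 3, and the SNTG2 site only without CFIm25 KO replicate 3.

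**Figure D5:**
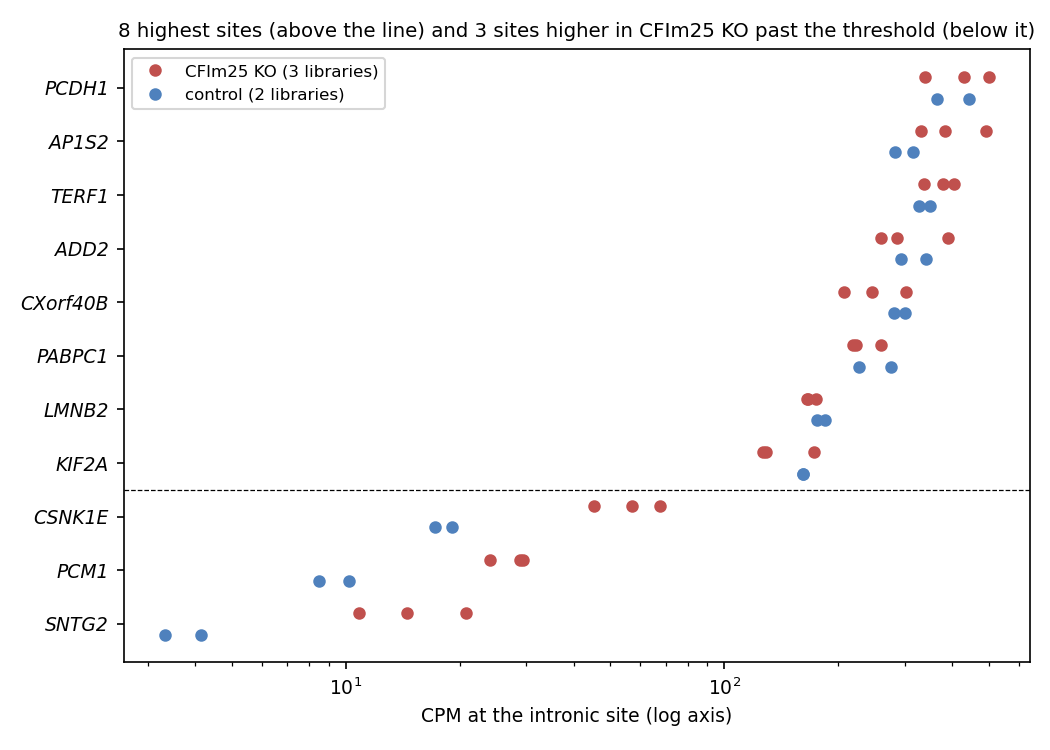
CPM (x axis, log scale) at the 8 intronic sites with the highest mean CPM, above the dashed line, and at the 3 sites that were higher in CFIm25 KO past the threshold, below it, 1 point per library, with the 3 CFIm25 KO libraries in red above the 2 control libraries in blue. The CSNK1E, PCM1 and SNTG2 points of CFIm25 KO lie right of control, while at PCDH1, TERF1 and ADD2 the groups overlap.

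The tested sites were also described by their position. The 937 tested sites upstream of all 3′ UTR sites had a median log2 fold change of -0.01 and 2 calls (89 unadjusted). The 119 between 3′ UTR sites had -0.01 and 2 calls (14 unadjusted), and the 211 downstream of all 0.01 and no call (22 unadjusted). Over all 1267 tested intronic sites 4 were called (0.316%) and 125 had an unadjusted p under 0.05 (9.87%), against 8.13% of all sites. The classes were not compared by a test. The stretches of 20% of gene length had medians between -0.04 and 0.06. The 59 tested sites at the RefSeq end of their own gene were higher in level, with a median of 9.78 CPM against 2.93 CPM over all tested intronic sites. Their median log2 fold change was 0.12, with no call and 6 unadjusted p under 0.05.

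Gene groups were described by their usage shifts. Of 24 cleavage and polyadenylation factors, 4 had an intronic site and 3 were tested, none with an unadjusted p under 0.05 in edgeR. CSTF3 had 201, 113 and 154 intronic reads in CFIm25 KO and 94 and 95 in control, with a share of 28.6% ± 4.70 and 23.9% ± 0.678 in these groups (shift 0.37, adjusted p = 0.676), most of it at the RefSeq end. CPSF6, which encodes the CFIm68 partner of CFIm25, had 42, 24 and 36 intronic reads in CFIm25 KO and 26 and 22 in control (shift -0.05, adjusted p = 0.984). RBBP6, a cleavage factor with a RING domain, had a share of 3.14% ± 0.388 in CFIm25 KO and 4.09% ± 0.034 in control (shift -0.40, adjusted p = 0.762). Of 25 elongation and PAF1 complex genes, only SUPT16H, a subunit of the histone chaperone FACT, was tested (shift 0.37, adjusted p = 0.832).

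Of 30 genes listed as DNA damage response genes with long introns, 7 were tested and none was called, with 1 unadjusted p under 0.05. Their median shift was -0.51, against 0.02 over all tested genes, with 5 of the 7 below 0, against 478 of all 987. WRN, a helicase, ended 15.0% ± 2.47 of its reads at its intronic site in CFIm25 KO and 27.4% ± 5.05 in control (shift -1.10, adjusted p = 0.281). RAD51C, a recombination factor, had 46, 43 and 24 intronic reads in CFIm25 KO and 50 and 38 in control, with 28, 19 and 16 3′ UTR reads in CFIm25 KO and 12 and 13 in control. Its share of 63.8% ± 4.90 in CFIm25 KO against 77.6% ± 4.34 in control did not overlap, but the RAD51C shift of -0.97 missed the threshold (adjusted p = 0.479).

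Among chromatin regulators, 9 were tested, with a median shift of -0.07, no call and no unadjusted p under 0.05. DNMT1, the maintenance DNA methyltransferase, had 164, 140 and 121 intronic reads in CFIm25 KO and 121 and 89 in control, and a share of 65.8% ± 5.19 and 57.2% ± 5.97 in these groups (shift 0.50, adjusted p = 0.64). NSD1, a histone H3 methyltransferase, and DIDO1 had shifts of 1.05 and -0.84 (adjusted p = 0.56 for each). Among splicing regulators, 8 were tested, with a median of 0.05, no call and 1 unadjusted p under 0.05. That was HNRNPA2B1, an RNA-binding protein of the nucleus, with 203, 186 and 166 reads over 5 intronic sites in CFIm25 KO and 79 and 89 in control. The HNRNPA2B1 share was higher in every CFIm25 KO library, 7.24% ± 1.77 against 3.92% ± 0.712 in control, and the shift of 0.90 (SE 0.23) had an adjusted p of 0.102. Without sites at a RefSeq gene end, an alternative chosen after seeing the data, HNRNPA2B1 passed (shift 1.22, adjusted p = 0.0184), and its adjusted p over all alternatives ran from 0.0184 to 0.774. SRSF11 and HNRNPA3 had shifts of -0.39 and 0.51 (adjusted p = 0.615 and 0.778).

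The tested zinc finger genes had a higher median intronic share than all tested genes. Every site had to reach a summed RPM of 5, so this share also depends on the 3′ UTR level, which was not compared here. Of 61 zinc finger genes with an intronic site, 47 were tested, with a median intronic share of 37.3% against 17.4% over all tested genes. Their median shift was 0.06, also with ZNF133 at its lower bound, with 24 above 0 and 23 below, ZNF133 being the 1 called gene (5 unadjusted). ZNF789 had a share of 38.1% ± 9.46 in CFIm25 KO and 19.6% ± 2.42 in control (shift 1.33, adjusted p = 0.281), and ZNF273 had 69.0% ± 0.997 and 47.2% ± 11.0 in these groups (shift 1.27, adjusted p = 0.307). Both were higher in all CFIm25 KO libraries without passing the test.

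Of ubiquitin ligases and deubiquitinases, 19 were tested, with a median shift of 0.01, no call and 2 unadjusted p under 0.05. TRIM16 had 13, 8 and 1 intronic reads in CFIm25 KO and 15 and 18 in control, with 171, 168 and 111 3′ UTR reads in CFIm25 KO and 81 and 94 in control (shift -1.96, adjusted p = 0.135). UBE2E3, a ubiquitin-conjugating enzyme, and RNF130 had shifts of 1.12 and 1.08 (adjusted p = 0.382 and 0.479). Of 35 receptor tyrosine kinases and related receptors, 5 were tested, all with shifts above 0 and a median of 0.28, with no call and no unadjusted p under 0.05. FLT1, a VEGF receptor, had 20, 39 and 28 intronic reads in CFIm25 KO and 18 and 25 in control (shift 0.55, adjusted p = 0.677). FGFR1 and FGFR2, receptors of fibroblast growth factors, had shifts of 0.52 and 0.28 (adjusted p = 0.715 and 0.899).

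Of 24 pluripotency genes, 7 had an intronic site and were tested, with a median intronic share of 3.50% and a median shift of 0.01. SMAD2 was the 1 called and the 1 with an unadjusted p under 0.05. DPPA4, a nuclear protein of pluripotent cells, had 15, 16 and 27 intronic reads in CFIm25 KO and 11 and 11 in control, beside 2393 to 3744 3′ UTR reads in CFIm25 KO and 2442 and 2531 in control (shift 0.57, adjusted p = 0.739). FOXO1, a forkhead factor, had 21, 12 and 18 intronic reads in CFIm25 KO and 13 and 16 in control (shift -0.34, adjusted p = 0.832).

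The 3′ UTR reads of the genes with intronic sites were summed per gene and tested with those of all genes. Of 1367 such genes tested, 1 was called (0.0732%), against 6 of 10115 genes (0.0593%). It was C9orf135, chosen here after its value was seen, with a log2 fold change of 1.25 (adjusted p = 0.0145). Leaving out a library gave 0 such genes without control replicate 1 (41 unadjusted), 0 without control replicate 2 (53 unadjusted), 0 without CFIm25 KO replicate 1 (79 unadjusted), 1 without CFIm25 KO replicate 2 and 16 without CFIm25 KO replicate 3. The 3′ UTR level of genes with intronic sites had a median of 18.8 CPM, against 15.9 CPM in the other genes with 3′ UTR sites. Over the 1431 genes the log2 of the mean intronic CPM and that of the mean 3′ UTR CPM had a Pearson r of -0.018, across genes of the same libraries. Every site had to reach a summed RPM of 5, so low values of both were cut off.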

How the data were processed

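Reads were reverse complemented by the authors and aligned using Bowtie2 (version not given in the sources used here) with 1 alignment kept per read. Read ends served as poly(A) junctions, which were filtered for internal priming and clustered. The deposited table holds raw read counts per site and library, RPM values obtained by the authors from them, their sum as a deposited score, and the authors' own comparison as a ratio (fold change) and p-value, which were not used. The labels name hg19, but 98.8% of 23776 sites lay within 5000 bases of their gene in GRCh38 RefSeq, against 12.5% of 24685 in GRCh37, so positions are given as GRCh38.

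Counts were analysed with edgeR 4.0.16 (R 4.3.3) after TMM scaling on nuclear sites, with filterByExpr, robust quasi-likelihood fits, diffSpliceDGE on the summed intronic and 3′ UTR reads of a gene, no covariate, two-sided, Benjamini-Hochberg over all rows tested, threshold 0.05. CPM values are per 1000000 nuclear reads without TMM, as mean ± SD (n = 3 CFIm25 KO, n = 2 control). Single values were compared by an exact permutation test over 10 splits. Library medians used a pseudocount of 0.5. Scripts were tested on simulated data. Reads carry no molecular identifiers, so the limit of 3 reads for a count of 0 covers counting error only. The 2 controls differed beyond sampling noise (chi-square per degree of freedom 2.92), so no library was counted as a duplicate. The pairs of CFIm25 KO libraries, which held more reads, differed more, with values of 5.72, 6.46 and 8.68. Alternatives were DESeq2 1.42.0 and its size factors, library totals, no filter, a library term, limma 3.58.1, a replicate block, left-out libraries and restricted site sets.

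Genes were named if past a threshold, among the 8 highest sites or 6 highest intronic shares, or if among the 3 genes of lowest p in a list. CSNK1E, PCM1, SMAD2 and CSTF3 were always named. Some genes that these rules pick are not reported here. PHF21B and VASH2 were named for their many sites, and sequences for lying in a RefSeq window, both after the values were seen. The sites, lists and rules were chosen with earlier results of these data known. Near-identical gene copies remain uncertain.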

Additional observations from a re-analysis of the deposited data

How the results depend on the processing

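For intronic usage per gene, 6 genes passed in the reported fit. With a replicate block 15 passed, with a library term 0 (94 with an unadjusted p under 0.05) and with limma on log2 ratios 1, and leaving out each library in turn gave 0 to 23. Other scalings, no filter, a minimum share of 5% and the restricted site sets gave 5 to 7. The set without sites at a RefSeq gene end, which gave 7 of 921 genes, was chosen after seeing the data. For single intronic sites, with 4 in the reported fit, the block gave 22, leaving out each library gave 1 to 18 and DESeq2 gave 5. For the summed 3′ UTR reads, with 1 in the reported fit, the block gave 60 and leaving out each library gave 0 to 16 (41 to 197 unadjusted). In the block fits CFIm25 KO replicate 3 has no control of its number and adds nothing to the contrast. The labels do not say that a number marks a shared origin, only 2 numbers are shared, and same-numbered libraries deviated together weakly (r = 0.068 and 0.022), so the block shows a shared number only.

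The share of reads at intronic sites differed by 0.0025 percentage points. The difference was -0.0082 relative to intronic plus 3′ UTR reads of the same genes, -0.0065 relative to all reads with mitochondrial sites, and between -0.0157 and 0.0135 when each library was left out. The library median of intronic usage differed by 0.023 in log2. It was -0.0354 without the filter on low counts and between -0.0164 and 0.0668 when each library was left out. The causes were not tested.

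Of the named genes that did not pass, several changed sign. The PABPC1 usage shift was 0.16 with the replicate block, 1.02 with sites upstream of all 3′ UTR sites only, 0.47 without sites at a RefSeq end, and between -0.39 and 0.15 when each library was left out. Leaving out each library gave shifts between -0.66 and 0.13 for RBFOX2, -0.35 and 0.047 for RUVBL1, -0.23 and 0.0067 for PCDH1, -0.28 and 0.26 for CPSF6, and -0.30 and 0.32 for CXorf40B. It gave log2 fold changes between -0.073 and 0.26 for the PCDH1 site, -0.18 and 0.13 for the ADD2 site and -0.20 and 0.040 for the PABPC1 site. Leaving out sites followed by an A-rich stretch was planned and not run, since no genome of the files' build was used here. Depth limits single sites: the median intronic site held 10 to 15 reads per library.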
